A study of Mus musculus with 18 samples.

Results

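Small leucine-rich proteoglycans are secreted matrix proteins, and 9 of their genes (Dcn, Bgn, Aspn, Fmod, Lum, Prelp, Omd, Ogn and Podn) were taken by symbol from a table of 24028 genes. They were chosen by their uninduced levels, which differed strongly between the 3 cell clones of the study. Those uninduced levels are therefore described without a test, and the same uninduced libraries also enter every response to doxycycline given here. The libraries were made from polyadenylated RNA of C2C12 cells, a mouse myoblast line, in 6 groups of 3 separate cultures. One clone carried a doxycycline-inducible, codon-altered mouse Dux, another a codon-altered human DUX4, and the last firefly luciferase, a protein with no function in mouse cells. Dux and DUX4 are related double-homeobox transcription factors, and the study compared their effects in mouse myoblasts. Induction was with 2 µg/ml doxycycline over 36 h, uninduced cultures of the same clone were harvested at the same time without it, and the growth medium of all 6 groups held serum and puromycin at 2.6 µg/ml. Each transgene was studied in a single clonal line, so clone, line and transgene cannot be told apart.

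The proteins of this family have a core of leucine-rich repeats, to which chondroitin, dermatan or keratan sulfate chains are attached in most members. They bind collagen and set the width and spacing of its fibrils, and several also bind growth factors of the TGF-beta family or receptors at the cell surface. In skeletal muscle they are made largely by fibroblasts and tendon cells of the connective tissue, although cultured myoblasts also secrete decorin and biglycan. By sequence, Dcn, Bgn and Aspn belong to class I, Fmod, Lum, Prelp and Omd to class II, Ogn to class III and Podn to class V.

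Total counts ranged from 11010586 to 17179642 per library. Library 1 of the induced mouse Dux group stood apart from its replicates: chi-square per degree of freedom against the others was 33.2 and 35.6, compared with 2.11 between libraries 2 and 3. Uninduced mouse Dux library 1 also differed from its replicates (5.02 and 5.10, against 1.25 between the other two), and all remaining replicate pairs lay between 1.34 and 2.74. The myoblast genes Myod1, Des and Cdh15 were detected in every group, while the fibroblast gene Tcf21, the adipocyte genes Lep and Cfd, the osteocyte gene Sost and the T cell gene Cd3e had 0 counts in all 18 libraries. Other genes of the same marker lists were present in the uninduced clones, as group means: Ly6a at 128 to 238 CPM, Cd34 at 42.6 to 169, Pdgfra at 13.7 to 26.1, Pparg at 4.64 to 11.5, Runx2 at 49.3 to 88.9 and Sox9 at 16.1 to 40.2. The tendon regulator Scx was present at 53.2 to 105 CPM in the uninduced clones (CPM, counts scaled to a common library size with TMM factors; group means). Endothelial Cdh5 was at 25.4 CPM in the uninduced luciferase clone and at 0 in the other uninduced clones. Some genes of the myoblast list were absent or near 0 in some groups. Myf6 had 0 counts in both mouse Dux groups, and Myf5 had 11 uninduced and 2 induced there. Pax7 had 1 count uninduced and 0 induced in the DUX4 line, and 8 and 3 in the luciferase line. In bulk RNA, fewer cells of a type and less RNA per cell cannot be told apart.

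Several of these genes lie side by side in the mouse genome (GRCm38). Aspn (chr13:49544443-49567565), Omd (chr13:49582462-49592822) and Ogn (chr13:49608046-49624501) follow each other on the forward strand, with gaps of 14.9 and 15.2 kb, and Ecm2 lies 11.7 kb before Aspn. The whole row sits inside Cenpp (chr13:49464023-49652785), a centromere protein gene on the reverse strand, and 7 exonic bases of Aspn are shared with exons of Cenpp. Dcn (chr10:97479609-97518143) and Lum (chr10:97565128-97572703) are 47.0 kb apart on the forward strand. Prelp (chr1:133910304-133921414, reverse strand, with an antisense gene over its exons) and Fmod (chr1:134037254-134048277, forward strand) are separated by 116 kb. Bgn (chrX:73483602-73495933, forward strand) and Podn (chr4:108014791-108096445, reverse strand) have no other family member beside them.

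The 3 neighbours on chromosome 13 are shown here with the 250 bases before their RefSeq start sites, because they lie close together and yet, of the 3, Omd alone was not called lower under either factor. The sequences are the forward strand of GRCm38.p6, read 5′ to 3′, from chr13:49544193-49544442 (Aspn), chr13:49582212-49582461 (Omd) and chr13:49607765-49608014 (Ogn). No annotated exon lies in the 3 windows. Capitals mark matches on either strand to any of the 5 motifs searched.
Aspn: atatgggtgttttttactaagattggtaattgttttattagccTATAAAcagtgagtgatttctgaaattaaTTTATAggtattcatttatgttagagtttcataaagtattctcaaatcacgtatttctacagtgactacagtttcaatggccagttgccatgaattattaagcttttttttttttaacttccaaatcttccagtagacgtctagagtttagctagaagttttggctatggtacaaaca
Omd: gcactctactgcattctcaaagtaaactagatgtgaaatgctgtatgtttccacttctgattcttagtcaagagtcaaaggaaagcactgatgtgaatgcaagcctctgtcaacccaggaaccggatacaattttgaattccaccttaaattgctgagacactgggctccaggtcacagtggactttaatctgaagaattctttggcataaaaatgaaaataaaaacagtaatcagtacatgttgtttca
Ogn: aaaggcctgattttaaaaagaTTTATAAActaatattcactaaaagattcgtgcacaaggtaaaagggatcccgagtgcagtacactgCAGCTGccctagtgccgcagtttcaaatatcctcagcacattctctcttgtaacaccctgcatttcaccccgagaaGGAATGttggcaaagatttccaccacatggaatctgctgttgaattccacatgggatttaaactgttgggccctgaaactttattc
The motifs were the TATA box TATAAA, the E-box CAGCTG bound by MyoD family factors, the AP-1 site TGANTCA, the TEAD site CATTCC and a double-homeobox core, which is given by name alone. Among 32851 RefSeq promoter windows of this length, they were found in 12.4%, 13.001%, 6.75%, 12.6% and 0.335% respectively. Upstream of Ogn there were 2 overlapping TATAAA matches on opposite strands 229 and 227 bases before the start, 1 CAGCTG 162 bases before it and 1 CATTCC 86 bases before it. The Aspn window held TATAAA matches 207 and 178 bases before the start, and the Omd window held none of the 5 motifs. GC content was 30.0% for Aspn, 38.4% for Omd and 42.0% for Ogn, below the median of 52.4% over all windows. RefSeq windows were matched for 7 of the 9 genes, without Dcn and Lum. Of the other matched genes, Bgn had 1 CAGCTG 102 bases before its start, 1 of the 2 Podn windows had 1 CAGCTG 61 bases before its start, and Fmod and Prelp had no match. These matches are letters in a window, not measured binding sites.

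Before induction, the luciferase clone had the highest level of 5 of the 7 genes that passed the filter on low counts, and the human DUX4 clone had the highest level of Fmod. Lum and Podn failed that filter in all groups and are given by their counts. The fitted level differed by 4-fold or more between the mouse Dux and luciferase clones for 3 of the 7 (Dcn, Aspn and Prelp), where 9.74% of all 13602 tested genes did. Between the human DUX4 and luciferase clones it did so for 5 (Dcn, Ogn, Fmod, Aspn and Omd; 13.8% of all tested genes), and between the mouse Dux and DUX4 clones for 6, with Bgn the exception (9.77%). In at least 1 of the 3 pairs, 18.4% of all tested genes passed 4-fold. Since uninduced levels chose the genes, nothing is read from these counts.

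Among the class I genes, decorin (Dcn), which binds collagen I and TGF-beta, was at 138, 139 and 139 CPM in the 3 uninduced luciferase libraries, at 4.50, 4.24 and 4.33 in those of the mouse Dux clone and at 0.438, 0.898 and 1.13 in those of the DUX4 clone. The groups did not overlap, and the luciferase mean was 31.8 times the mouse Dux mean and 169 times the DUX4 mean. Asporin (Aspn), a relative of decorin that carries no glycosaminoglycan chain and binds collagen, spanned a wider range. It was at 580.5, 596 and 583 CPM in the luciferase clone, 13.5, 12.01 and 12.6 in the mouse Dux clone and 1.06, 1.54 and 0.905 in the DUX4 clone, again without overlap. The DUX4 clone held 53 Aspn counts in its 3 libraries together and the luciferase clone 28278. Biglycan (Bgn), which binds collagen, TGF-beta and the muscle dystroglycan complex, varied least. Its 3 values were 1989, 2045 and 1983 CPM in the luciferase clone, 1324, 1413 and 1378 in the mouse Dux clone and 1168, 1112 and 1105 in the DUX4 clone. These groups did not overlap either, with a luciferase mean 1.46 times that of the mouse Dux clone and 1.78 times that of the DUX4 clone.

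In class II, fibromodulin (Fmod), which binds fibrillar collagen and carries keratan sulfate, ran the other way. It was at 217, 210.0 and 206 CPM in the uninduced DUX4 clone, 35.9, 37.4 and 36.5 in the mouse Dux clone and 15.3, 14.99 and 13.3 in the luciferase clone. The DUX4 mean was thus 14.5 times the luciferase mean, and the 3 groups did not overlap. Prelp, whose product anchors matrix to heparan sulfate, was nearly level in the DUX4 clone (102, 99.2 and 105 CPM) and the luciferase clone (99.5, 100.3 and 100.1), which overlapped. The mouse Dux clone was lower for Prelp, at 13.2, 12.5 and 12.4 CPM. Osteomodulin (Omd), an acidic keratan sulfate proteoglycan best known from bone, was at 32.1, 35.0 and 34.6 CPM in the luciferase clone, 27.2, 24.7 and 24.3 in the mouse Dux clone and 6.94, 6.15 and 5.58 in the DUX4 clone. Lumican (Lum), which shares a collagen site with fibromodulin, had 0, 0 and 2 counts in the uninduced mouse Dux libraries, 0 in each of the DUX4 clone and 2, 2 and 3 in those of luciferase.

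Osteoglycin (Ogn), the class III member and a regulator of collagen fibril growth that is also secreted by muscle, was at 2187, 2289 and 2271 CPM in the uninduced luciferase clone and at 1853, 1687 and 1697 in the mouse Dux clone. The DUX4 clone was far lower, at 140.1, 138 and 142 CPM, so the luciferase mean was 16.1 times and the mouse Dux mean 12.5 times its own. Podocan (Podn), a class V collagen-binding protein, had 5, 3 and 5 counts in the mouse Dux libraries, 0, 0 and 1 in those of DUX4 and 2, 0 and 1 in those of luciferase.

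**Figure D1:**
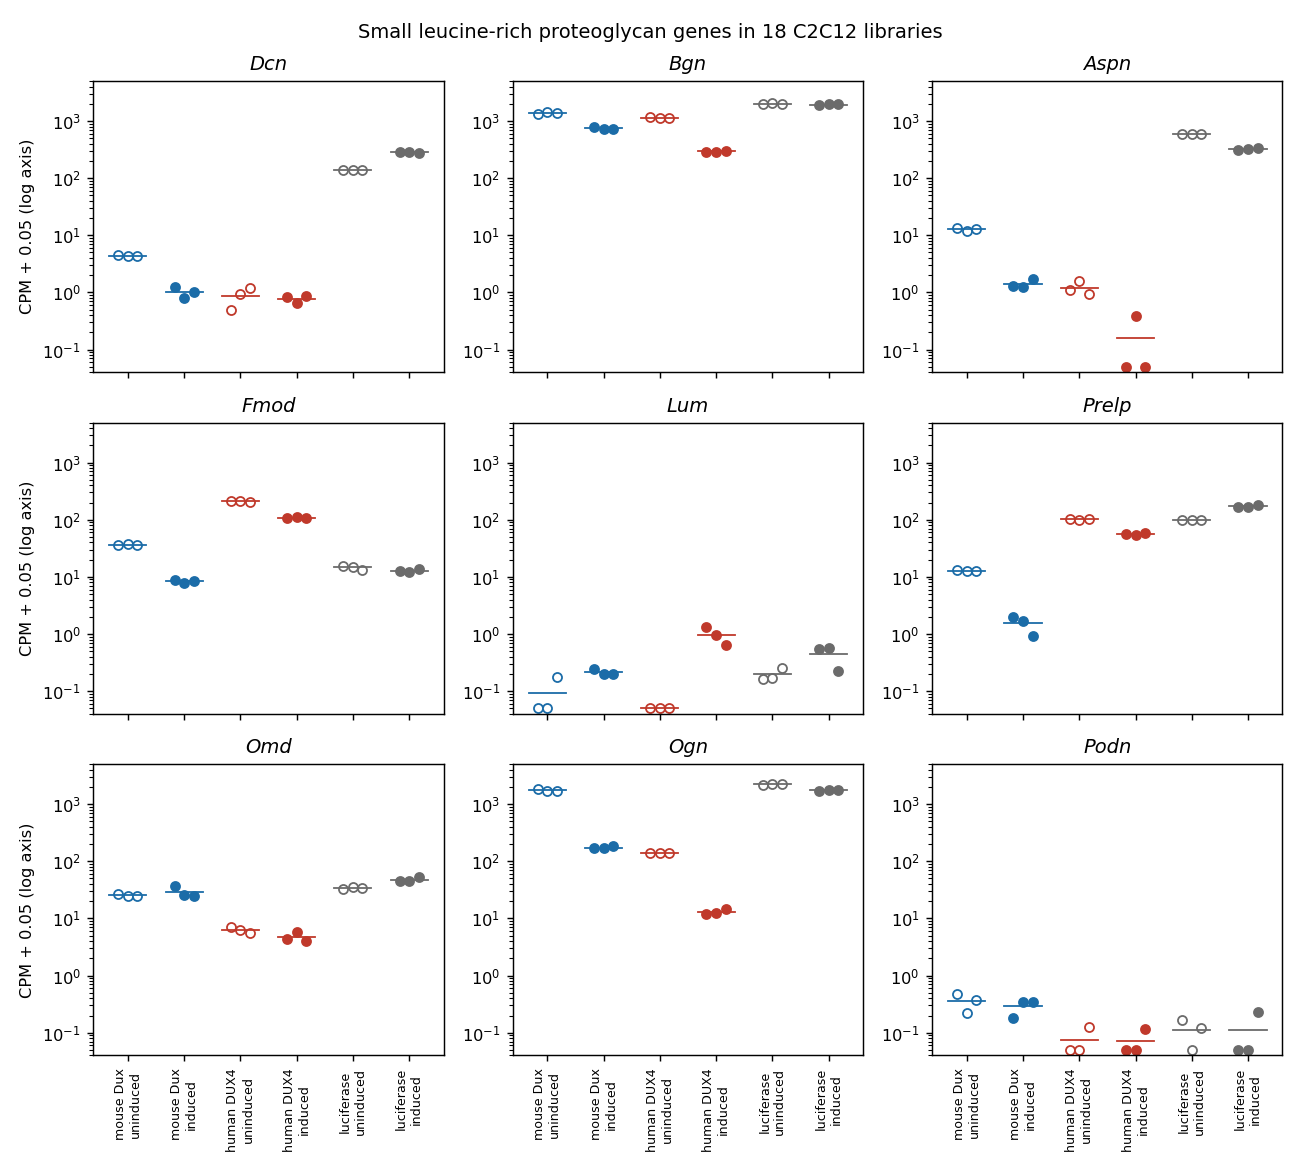
Level of each gene in every library, as CPM + 0.05 on a log axis; open points are uninduced and filled points induced libraries, and horizontal lines are the means of 3. Dcn and Aspn are highest in the luciferase clone and Fmod in the DUX4 clone, Ogn lies at 1687 to 2289 CPM in the uninduced mouse Dux and luciferase libraries and near 140 in those of DUX4, and Lum and Podn stay close to 0.

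Markers of differentiated muscle moved with the clones. In the uninduced luciferase clone Myog was at 194, Myh3 at 192, Acta1 at 234 and Ckm at 33.2 CPM, whereas none of these 4 passed 7.75 CPM in the other uninduced clones. The summed level of the 12 myoblast and myotube markers was 3078 to 3101 CPM in the luciferase clone, 1058 to 1105 in the mouse Dux clone and 388 to 412 in the DUX4 clone. The summed 10 fibroblast and fibro-adipogenic markers were at 301 to 320, 307 to 326 and 288 to 300 CPM, but single markers separated the clones without overlap of luciferase with the others. Ly6a was at 231 to 244 CPM in the luciferase clone, 123 to 135 in the mouse Dux clone and 136 to 145 in the DUX4 clone. Cd34 ran the other way, at 39.5 to 44.6, 164 to 172 and 117 to 129 CPM. The part of these cell states in the differences between clones was not tested.

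Corrected for length (CPM per kb of merged exons), Ogn led in the uninduced mouse Dux clone (680.2 ± 36.2, SD, n = 3) and in the luciferase clone (876 ± 21.1), followed by Bgn (225 ± 7.30 and 329 ± 5.60). In the luciferase clone Aspn came next at 249.1 ± 3.55. The DUX4 clone had another order, with Bgn first (185 ± 5.64), Fmod next (63.7 ± 1.67) and Ogn after it (54.5 ± 0.833). Among the genes that passed the filter, Omd (11.3 ± 0.698) and Fmod (11.1 ± 0.221) were neighbours with overlapping values in the uninduced mouse Dux clone. Podn and Lum, last in the order there and in the DUX4 clone, also overlapped. The merged exons of Bgn are longer than its longest transcript, and dividing by the latter raises it to 514, 423 and 752 CPM per kb in the mouse Dux, DUX4 and luciferase clones, still below Ogn in the first and the last. In the induced luciferase group it would put Bgn (728) above Ogn (684).

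As shares of the summed CPM per kb of the 9 genes, Ogn made up 72.6% ± 1.51 in the uninduced mouse Dux clone, 57.5% ± 0.445 in the luciferase clone and 16.3% ± 0.419 in the DUX4 clone. All shares rest on merged exons, and dividing by the longest transcript would raise the share of Bgn and lower that of Ogn. Bgn took 55.2% ± 0.491 and Fmod 19.0% ± 0.215 in the DUX4 clone, while Aspn took 16.3% ± 0.150 in the luciferase clone alone and less than 1% in the others (0.576% and 0.148%). Induction shifted this make-up. In the mouse Dux line the Ogn share went to 32.6% ± 1.90, that of Bgn from 24.0% ± 1.496 to 59.4% ± 0.812 and that of Omd from 1.203% ± 0.0352 to 6.23% ± 1.25. In the DUX4 line the Ogn share went to 4.83% ± 0.417 and the Fmod share to 31.3% ± 0.625. Shares are relative to a sum that fell in both lines. The level of Bgn itself fell under mouse Dux and that of Fmod under DUX4, and Omd was not called under mouse Dux.

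**Figure D2:**
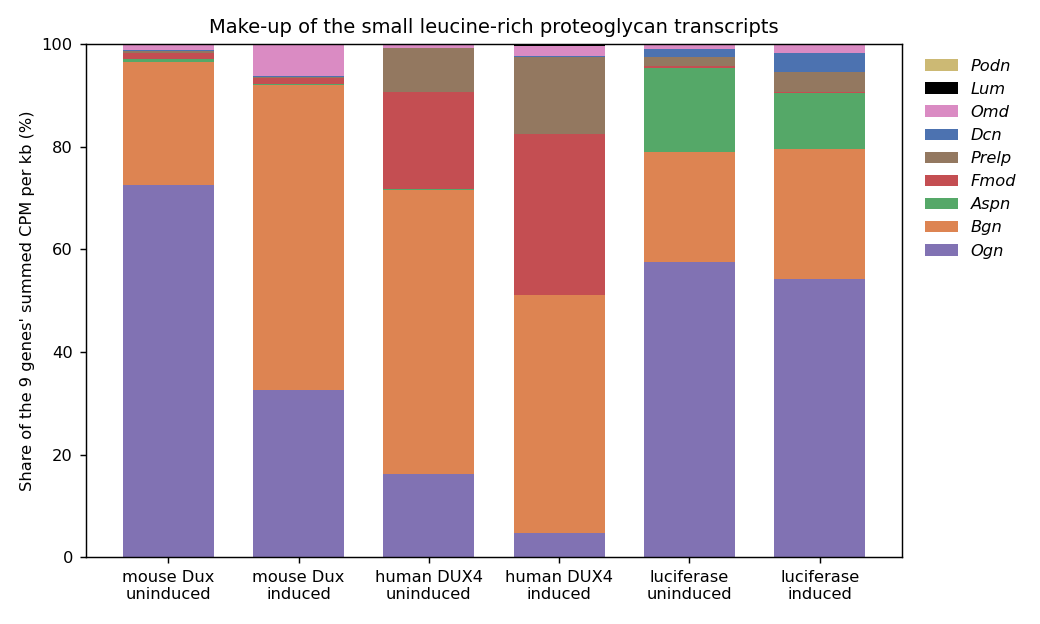
Share of each gene in the summed CPM per kb of the 9 genes, in percent, as the mean of 3 libraries per group. Ogn is the largest block in both luciferase groups and in the uninduced mouse Dux clone (72.6%), and Bgn is the largest in the induced mouse Dux group and in both DUX4 groups. Lengths are merged exons. By the longest transcript, Bgn (728 CPM per kb) would exceed Ogn (684) in the induced luciferase group.

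The summed level of the 9 genes was 3209 ± 55.6 CPM in the uninduced mouse Dux clone and 968 ± 34.4 when induced (SD, n = 3), which is 0.342% and 0.0872% of all counts. In the DUX4 line it was 1589 ± 39.7 and 477 ± 7.78 CPM, and in the luciferase line 5128 ± 88.4 without and 4531 ± 88.8 with doxycycline. Ogn and Bgn together carry most of each sum. In the DUX4 line this is mainly Bgn, at 1128 CPM uninduced and 293 induced. Ogn was at 140.0 and 12.9 CPM there, below Fmod at 211 and 108.

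With mouse Dux induced, most of the tested members fell. Of the 7 genes tested, 6 fell and none rose, 5 of them by 4-fold or more, and osteomodulin alone was not called. Among all tested genes, 34.8% were called lower, 34.1% higher and 2.04% lower by at least 4-fold. The median log2 fold change was -2.15 over the 7 and -0.01 over all tested genes. The filter can keep a gene through its uninduced level alone, so these counts describe the genes that passed it, and not all 9. The summed fibroblast markers went from 307 to 326 CPM without doxycycline to 121 to 142 with it, and 5 of the 6 tested were called lower. Tendon markers summed to 188 to 202 CPM without and 162 to 182 with it, and of 4 tested 1 rose and 2 fell. Osteoblast and chondrocyte markers went the other way, from 113 to 118 CPM to 140.0 to 155, and of 6 tested 2 rose and 1 fell. Of the 12 myoblast and myotube markers 7 fell and 2 rose (median log2 fold change -0.53), with Cdh15 at 190.2 CPM without and 54.5 with doxycycline, Tnnt1 at 31.7 and 3.69 and Myod1 at 123 and 88.1. Des went the other way, at 718 CPM without and 948 with doxycycline, as did Myl1 at 0.387 and 11.3. The sum of the 12 markers was at 1058 to 1105 CPM without and 1051 to 1171 with doxycycline. The part of such cells or programmes in the fall was not tested.

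Osteoglycin and asporin had the lowest fold changes. Ogn went from 1687 to 1853 CPM in the uninduced libraries to 169, 169 and 182 in the induced ones (log2 fold change -3.33, SE 0.0584, adjusted p = 9.11e-20). It was the 66th lowest of the 13602 fold changes. Asporin fell from 12.01 to 13.5 CPM to 1.25, 1.201 and 1.69 (log2 fold change -3.19, SE 0.180, adjusted p = 7.36e-12). The groups did not overlap for either gene. The order among Ogn, Aspn and Prelp is not settled: without induced library 1, Prelp was at -3.330 and Ogn at -3.324.

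Prelp fell from 12.4 to 13.2 CPM to 1.91, 1.65 and 0.879 (log2 fold change -3.08, SE 0.132, adjusted p = 1.05e-13). Decorin fell from 4.24 to 4.50 CPM to 1.18, 0.751 and 0.952, that is 194 counts against 41 over 3 libraries (log2 fold change -2.15, SE 0.176, adjusted p = 2.04e-09). Fibromodulin fell from 35.9 to 37.4 CPM to 8.88, 7.81 and 8.50 (log2 fold change -2.12, SE 0.0682, adjusted p = 1.33e-15). All 9 induced values of these 3 genes lay below the uninduced values of the same gene. The share of all tested genes set apart in this way is not given, so nothing is read from it.

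Biglycan was the least affected of the 6. Bgn went from 1324 to 1413 CPM to 787, 734 and 738 (log2 fold change -0.87, SE 0.0426, adjusted p = 8.83e-13). The uninduced mean was 1.82 times the induced one. Osteomodulin was at 24.3 to 27.2 CPM uninduced and at 37.1, 25.7 and 24.9 induced, with overlapping groups (log2 fold change 0.22, SE 0.124, adjusted p = 0.129). The high value came from induced library 1, which stands apart. Without it the log2 fold change of Omd was -0.01 (adjusted p = 0.936), and without induced library 2 or 3 it was 0.30 (adjusted p = 0.0492) or 0.31 (adjusted p = 0.0370). Without induced library 1 the 6 other genes stayed between -0.91 for Bgn and -3.33 for Prelp, each still called lower. Leaving out uninduced library 1 changed no call.

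Lumican and podocan stayed near 0. Lum had 2 counts uninduced and 3, 2 and 2 induced, a ratio of 3.71 (95% exact Clopper-Pearson interval 0.706 to 36.6, counting error only). Podn had 13 counts uninduced and 10 induced, a ratio of 1.23 in the other direction (interval 0.497 to 3.12). Scaling by library size alone moved the median of all genes by -0.24 in this comparison and the share of higher genes among those called from 49.6% to 31.6%. The 6 falls kept their direction, and Omd turned to -0.03 (adjusted p = 0.844).

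With human DUX4 induced, most of the tested members also fell. Of the 7 genes tested, 5 fell and none rose, and decorin and osteomodulin were not called. Among all tested genes 33.1% were called lower and 34.4% higher. Ogn and Aspn fell by 4-fold or more, as did 3.83% of all tested genes. The median log2 fold change was -0.97 over the 7 and 0 over all tested genes. The filter can keep a gene through its level in another line, so these counts describe the genes that passed it. The summed tendon markers were at 206 to 224 CPM without and 58.0 to 58.4 with doxycycline, with 3 of the 4 tested called lower. Osteoblast and chondrocyte markers summed to 102 to 112 CPM without and 48.3 to 51.6 with it, and of 6 tested 1 fell and 0 rose. Of the 12 myoblast and myotube markers 6 fell and 2 rose (median log2 fold change -1.49), with Myod1 at 26.2 CPM without and 3.67 with doxycycline and Des at 212 and 76.3. Myl1 went the other way, at 6.42 CPM without and 15.8 with doxycycline. Of the 6 tested fibroblast markers 2 rose and 2 fell, and their sum was at 288 to 300 CPM without and 278 to 298 with doxycycline; Pdgfra was at 26.1 and 123 CPM and Ly6a at 140.1 and 27.6. The part of these markers in the fall was not tested.

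Osteoglycin again fell steeply. Ogn went from 138 to 142 CPM to 11.8, 12.6 and 14.3 (log2 fold change -3.44, SE 0.0664, adjusted p = 1.05e-18). Asporin, already rare in this clone, went from 17, 24 and 12 counts to 0, 5 and 0 (log2 fold change -3.30, SE 0.511, adjusted p = 1.08e-05). The count ratio was 10.5 (95% exact interval 4.23 to 33.7). All 5 induced counts of Aspn came from library 2; the log2 fold change was -7.18 without that library and -2.75 without library 3, and it was called in both cases.

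Biglycan fell further here than under mouse Dux, from 1105 to 1168 CPM to 289.8, 290.1 and 300.0 (log2 fold change -1.94, SE 0.0440, adjusted p = 8.60e-18). Fibromodulin, highest in this clone, fell from 206 to 217 CPM to 106, 110.0 and 107 (log2 fold change -0.97, SE 0.0482, adjusted p = 7.66e-13). Prelp fell from 99.2 to 105 CPM to 56.2, 54.9 and 58.2 (log2 fold change -0.85, SE 0.0614, adjusted p = 2.27e-10). For these 3 genes the induced and uninduced libraries did not overlap, which is description only, as the share over all tested genes is not given.

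Decorin had 7, 14 and 15 counts uninduced and 11, 9 and 12 induced, and the groups overlapped (log2 fold change -0.16, SE 0.272, adjusted p = 0.709). Its count ratio was 1.12 uninduced over induced, with a 95% exact interval of 0.674 to 1.86 (counting error only). Without uninduced library 3 the sign of the Dcn value turned (0.11, adjusted p = 0.831). Osteomodulin was at 6.94, 6.15 and 5.58 CPM uninduced and 4.38, 5.68 and 3.95 induced, again overlapping (log2 fold change -0.42, SE 0.204, adjusted p = 0.0771). The Omd difference was called when only these 6 libraries were fitted (-0.44, adjusted p = 0.00664) or when induced library 2 was left out (-0.59, adjusted p = 0.0312).

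Lumican was the exception among the rare genes. Lum had 0 counts in the 3 uninduced DUX4 libraries and 18, 14 and 9 in the induced ones, at least 13.8-fold more (against a floor of 3 counts over the group). It failed the filter on low counts, and in a fit without the filter its log2 fold change was 6.82 (adjusted p = 1.67e-06), a value that depends on the prior count of the fit. The induced level was still low, at 0.926 CPM ± 0.325 (SD, n = 3). Podn had 1 count in each group.

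In the luciferase line, which controls for doxycycline itself, the genes split. Decorin, Prelp and osteomodulin rose, asporin, osteoglycin and fibromodulin fell, and biglycan was not called. Of the 7 tested genes 3 rose and 3 fell, where 14.7% of all tested genes rose and 16.4% fell. The median log2 fold change was -0.05 over the 7 and 0 over all tested genes. None of the changes exceeded 4-fold. Of the 12 myoblast and myotube markers, 10 fell in the same cultures; Myog was at 194 CPM without and 118 with doxycycline, Myh3 at 192 and 90.01 and Acta1 at 234 and 111. The part of this shift in the proteoglycan values was not tested.

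Decorin rose most. Dcn went from 138, 139 and 139 CPM to 286, 283 and 273 (log2 fold change 1.02, SE 0.0565, adjusted p = 4.18e-11). Prelp rose from 99.5 to 100.3 CPM to 167, 166 and 179 (log2 fold change 0.77, SE 0.0584, adjusted p = 4.36e-09). Osteomodulin rose from 32.1 to 35.0 CPM to 44.7, 44.8 and 52.9 (log2 fold change 0.49, SE 0.113, adjusted p = 0.00246). The groups did not overlap for these 3 genes, again without the share over all tested genes. The summed fibroblast markers were at 301 to 320 CPM without and 385 to 400.2 with doxycycline, and 4 of the 6 tested rose. Tendon markers summed to 203 to 206 CPM without and 233 to 260.3 with it, and of 4 tested 2 rose and 2 fell. Osteoblast and chondrocyte markers summed to 89.4 to 95.4 and 102 to 109 CPM. The part of these markers in the 3 rises was not tested.

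Asporin fell from 580.5 to 596 CPM to 307, 327 and 333 (log2 fold change -0.86, SE 0.0795, adjusted p = 6.81e-08). Osteoglycin fell from 2187 to 2289 CPM to 1705, 1768 and 1793 (log2 fold change -0.36, SE 0.0529, adjusted p = 2.87e-05). Fibromodulin was at 13.3 to 15.3 CPM without and at 12.6, 11.9 and 13.5 with doxycycline (log2 fold change -0.20, SE 0.0687, adjusted p = 0.0369). The Fmod groups overlapped, and the call was lost without uninduced library 1 or 2 (adjusted p = 0.176 and 0.120) or induced library 1 or 2 (0.0919 and 0.174), under library size alone (0.0584), with DESeq2 (0.0536) and with no filter (0.0625).

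Biglycan was at 1913, 1943 and 1967 CPM against 1983 to 2045 without doxycycline (log2 fold change -0.05, SE 0.0422, adjusted p = 0.440). These groups did not overlap either, although the gene was not called. Lum had 2, 2 and 3 counts without and 8, 8 and 3 with doxycycline, a ratio of 2.71 (95% exact interval 1.09 to 7.62) with overlapping groups. Podn had 3 counts in each group.

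**Figure D3:**
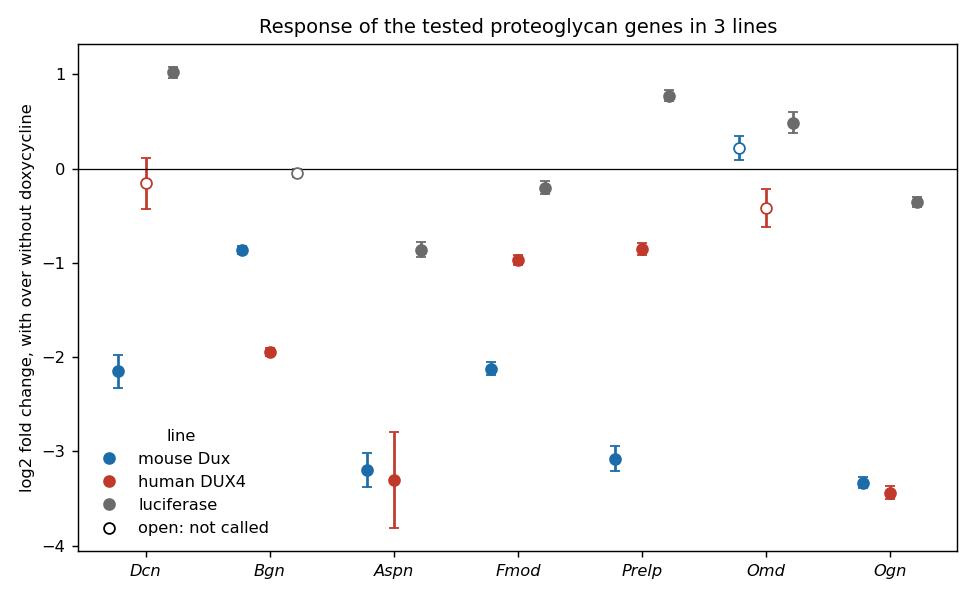
Log2 fold change with over without doxycycline (y axis) of the 7 genes that passed the filter, in each line; bars are 1 SE from the fit over 18 libraries, and open points were not called. Ogn and Aspn lie near -3.3 in both factor lines, whereas Dcn and Prelp lie below -2 in the mouse Dux line and near or above -0.85 in the DUX4 line.

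The difference between responses was tested itself, as an interaction. Against luciferase, the mouse Dux response was lower for 6 of the 7 genes and higher for none; 29.5% of all tested genes were called lower and 30.4% higher. Prelp differed most (-3.85, SE 0.144, adjusted p = 4.19e-14), followed by Dcn (-3.17, SE 0.181, adjusted p = 1.98e-11) and Ogn (-2.97, SE 0.0769, adjusted p = 1.80e-16). Aspn (-2.33), Fmod (-1.92) and Bgn (-0.82) were also called. Omd was not (-0.27, SE 0.167, adjusted p = 0.176), but it was called without induced mouse Dux library 1 (-0.49, adjusted p = 0.000136) and under scaling by library size alone (-0.53, adjusted p = 0.00889). That scaling moved the median of all genes by -0.26 and the share of higher calls from 50.7% to 32.2%.

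The DUX4 response was lower than that of luciferase for all 7 tested genes and higher for none. Among all tested genes 26.7% were called lower and 28.3% higher. The filter can keep a gene through its level in another line, so this count describes the genes that passed it. In the DUX4 line Dcn had 36 counts uninduced and 32 induced, and Aspn 53 and 5. Ogn (-3.08, SE 0.0845, adjusted p = 6.95e-16) and Aspn (-2.44, SE 0.546, adjusted p = 0.000829) had the lowest values, followed by Bgn at -1.90 and Prelp at -1.63. The place of Aspn rests on single libraries with few counts: it was -6.31 without induced DUX4 library 2 and -1.88 without library 3. Dcn (-1.18, SE 0.282, adjusted p = 0.00228) and Omd (-0.91, SE 0.233, adjusted p = 0.00269) were called lower although neither was called in the DUX4 line itself; both rose with doxycycline in the luciferase line. Without uninduced DUX4 library 3 the Dcn difference was no longer called (-0.91, adjusted p = 0.0572). Fmod differed by -0.77. Lum was called higher in the fit without the filter (5.44, adjusted p = 0.00577).

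Set against each other, the factors differed for 5 of the 7 genes. The mouse Dux response was lower for Prelp (-2.22, SE 0.153, adjusted p = 1.78e-10), Dcn (-1.99, SE 0.340, adjusted p = 3.90e-05) and Fmod (-1.15, SE 0.0846, adjusted p = 4.62e-10). It was higher, that is, the fall was smaller, for Bgn (1.08, SE 0.0602, adjusted p = 8.32e-12), and it was higher for Omd (0.64, SE 0.238, adjusted p = 0.0254). Of all tested genes, 32.3% were called lower and 32.9% higher. The count of members that differed is near these shares, and nothing is read from it. Library size alone moved the median of all genes by -0.20 and the share of higher calls from 50.4% to 38.8%. In the fit without the filter, the Lum response was lower under mouse Dux (-5.12, adjusted p = 0.0452). This Lum call was lost without uninduced mouse Dux library 3 (-2.42, adjusted p = 1.00) and without uninduced DUX4 library 1 or 2 (adjusted p = 0.0542 and 0.0539). The Omd difference was not called under library size alone (0.43, adjusted p = 0.116) or without uninduced DUX4 library 1 or induced DUX4 library 1 or 3 (0.53 to 0.59, adjusted p = 0.0828, 0.0595 and 0.0833).

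Osteoglycin and asporin were the genes without a called difference between the factors. For Ogn it was 0.11 (SE 0.0845, adjusted p = 0.278), on falls of -3.33 and -3.44. For Aspn it was also 0.11, but with an SE of 0.405 (adjusted p = 0.848), and without induced DUX4 library 2, which held all its induced counts, it became 3.98 (adjusted p = 0.0144). The comparisons share their controls, so these values are not independent of those above.

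On chromosome 13 the genes on either side of osteomodulin fell under both factors and osteomodulin itself was not called in either (Aspn -3.19 and -3.30, Omd 0.22 and -0.42, Ogn -3.33 and -3.44). Ecm2, which encodes another leucine-rich repeat matrix protein, also fell, by a log2 fold change of -1.62 under mouse Dux (SE 0.182, adjusted p = 1.80e-07) and -2.77 under DUX4 (SE 0.279, adjusted p = 3.54e-08). With doxycycline in the luciferase line Ecm2 was not called (0.03, adjusted p = 0.885). Cenpp, which spans the row on the other strand, fell in all 3 lines (-1.75, -1.97 and -1.61) from low levels of 20.1, 12.4 and 7.67 CPM. No source used here states whether the counting used strand, so reads from the 7 shared exonic bases cannot be assigned with certainty. At the cluster on chromosome 1, Optc, the gene beside Prelp, fell under mouse Dux (-2.59, SE 0.500, adjusted p = 0.000138), under DUX4 (-2.56, SE 0.338, adjusted p = 1.48e-06) and with doxycycline in the luciferase line (-0.75, SE 0.208, adjusted p = 0.00945). Optc counts were low, at 40 uninduced and 6 induced under mouse Dux and 91 and 15 under DUX4. In the luciferase line they were 150 and 89. On chromosome 10, Kera and Epyc, which follow Lum, had at most 6 counts in any group.

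**Figure D4:**
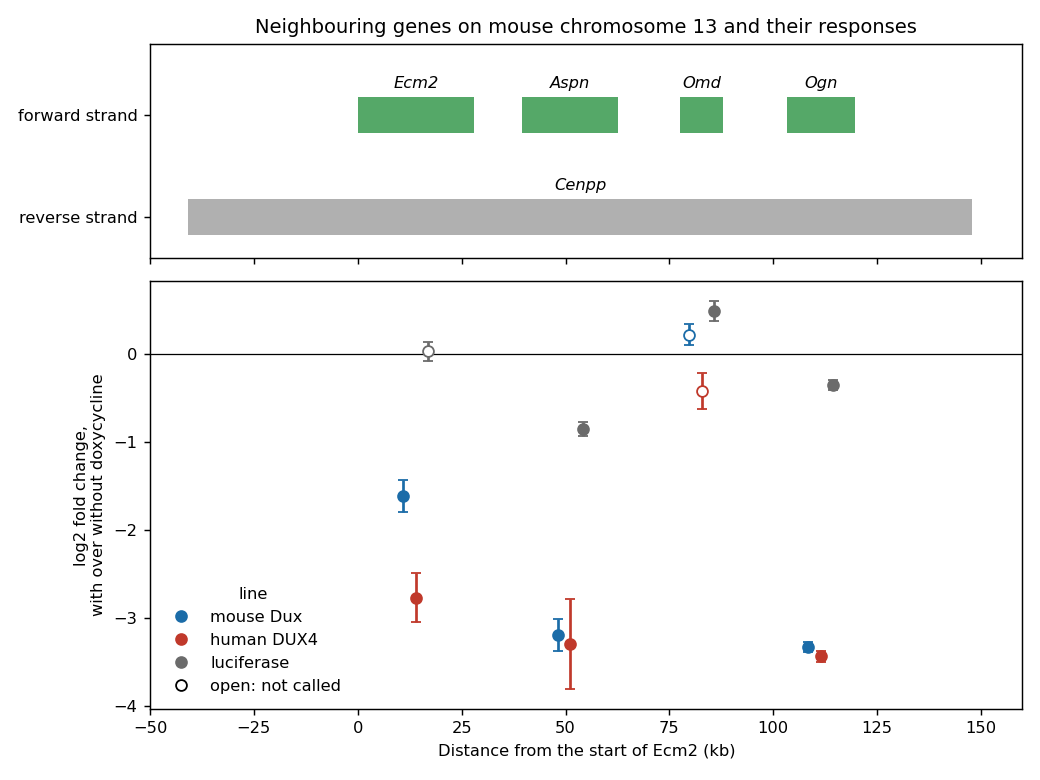
Upper panel, position of Ecm2, Aspn, Omd, Ogn and Cenpp by strand, as distance from the start of Ecm2 in kb; lower panel, log2 fold change with over without doxycycline with 1 SE for the 4 forward-strand genes in the 3 lines, points set side by side at each gene. Aspn and Ogn lie between -3.19 and -3.44 in both factor lines, and Omd between them lies at 0.22 and -0.42.

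Other family members were counted in the same way. Of 9 further leucine-rich repeat proteoglycan genes, 5 were tested. Of these, 4 fell and 1 rose under mouse Dux (median log2 fold change -1.62), 3 fell and 1 rose under DUX4 (median -2.17), and 2 fell and 1 rose in the luciferase line (median 0.03). Over all tested genes, 34.8% fell and 34.1% rose under mouse Dux, 33.1% and 34.4% under DUX4, and 16.4% and 14.7% in the luciferase line. Podnl1, the closest relative of podocan, fell from 113 to 17.8 CPM under mouse Dux (-2.67, SE 0.0565, adjusted p = 1.89e-18) and from 60.1 to 13.3 under DUX4 (-2.17, SE 0.0598, adjusted p = 1.23e-16). Tsukushi (Tsku), a secreted modulator of signalling, rose in each line (0.38, 0.60 and 0.61), although under mouse Dux it was not called with scaling by library size alone.

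Collagens that these proteoglycans coat and genes of fibril assembly were also counted. Of 18 genes of fibrillar and fibril-associated collagens and fibril assembly, 11 fell and 3 rose under mouse Dux, with a median log2 fold change of -0.83, where 34.8% of all tested genes fell and 34.1% rose. Under DUX4 14 fell and 2 rose (median -1.58), where 33.1% of all tested genes fell and 34.4% rose, and in the luciferase line 7 fell and 3 rose (median -0.01). In the luciferase line 16.4% of all tested genes fell and 14.7% rose. The medians over all tested genes in the mouse Dux, DUX4 and luciferase lines were -0.01, 0 and 0. Under mouse Dux the largest falls were those of the collagen VI chains Col6a2 (-2.13, SE 0.0529), Col6a1 (-1.88, SE 0.0617) and Col6a3 (-1.54, SE 0.204). Under DUX4, Col1a2, a chain of collagen I, fell from 2378 to 264 CPM (-3.17, SE 0.0624, adjusted p = 1.35e-18), and Col6a1 (-2.78) and the crosslinking enzyme gene Loxl1 (-2.67) followed.

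Enzymes that build the sugar chains did not move as one. The shares over all tested genes (34.1% higher and 34.8% lower under mouse Dux, 34.4% and 33.1% under DUX4) stand beside each of the following counts. Some of the counts are near those shares, and nothing is read from them. Of 9 tested genes for the linker and its UDP-sugars, 3 rose and 1 fell under mouse Dux (0 and 5 when scaled by library size alone) and 5 rose and 2 fell under DUX4. Ugdh, which makes the UDP-glucuronate that the chains need, fell in both (-0.73, SE 0.0432, and -1.86, SE 0.0446), while Uxs1, which turns it into the UDP-xylose of the linker, rose under DUX4 (1.18, SE 0.0465). Of 16 chondroitin and dermatan sulfate genes, 9 rose and 4 fell under mouse Dux (median 0.20; 4 and 7 when scaled by library size alone), and 6 rose and 8 fell under DUX4 (median -0.16). The sulfotransferase genes diverged: Chst7 rose in both (2.28, SE 0.0851, and 1.92, SE 0.0973), whereas Chst3 fell in both (-1.45, SE 0.116, and -4.26, SE 0.193) and Chst15 fell under DUX4 (-2.98, SE 0.171).

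Of the 6 tested keratan sulfate genes, 4 rose and 2 fell under mouse Dux and 2 rose and 2 fell under DUX4, with the galactosyltransferase gene B4galt4 higher in both (1.03, SE 0.119, and 2.28, SE 0.111). Among 8 genes of sulfate supply and tyrosine sulfation, 4 rose and 2 fell under mouse Dux and 3 rose and 3 fell under DUX4. Tpst1, which sulfates tyrosines such as those of fibromodulin and osteomodulin, fell in both (-1.06, SE 0.0873, and -1.88, SE 0.0962). In the luciferase line 0 of these 8 was called by edgeR in the 6-group fit, and 1 was called lower when only the luciferase libraries were fitted.

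Of 18 tested ligands and receptors that family members bind, 12 fell and 2 rose under mouse Dux (median -0.69) and 9 fell and 6 rose under DUX4 (median -0.42). Over all tested genes 34.8% fell and 34.1% rose under mouse Dux and 33.1% and 34.4% under DUX4, so the count of rising genes under DUX4 is near the share over all genes. Tgfb3, a TGF-beta ligand, fell from 172 to 26.6 CPM under mouse Dux (-2.69, SE 0.0561), and Tlr2, a receptor for soluble biglycan, from 45.9 to 11.3 (-2.02, SE 0.0773). Pdgfrb fell in both lines (-2.33, SE 0.0930, and -4.08, SE 0.105), Tgfbr2 fell under DUX4 (-1.55, SE 0.0491), and Pdgfra rose under DUX4 from 26.1 to 123 CPM (2.23, SE 0.0937). Pdgfra is also among the fibroblast markers.

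Of 10 tested proteases that cut these proteins, 5 rose and 3 fell under mouse Dux and 4 rose and 4 fell under DUX4, on the same shares over all tested genes; nothing is read from these counts. Mmp9 rose under DUX4 from 0.997 to 56.9 CPM (5.81, SE 0.141, adjusted p = 2.13e-17), and Mmp2 fell under mouse Dux from 493 to 111 CPM (-2.15, SE 0.0420, adjusted p = 4.94e-19). Among 14 other proteoglycans tested, 7 fell and 3 rose under mouse Dux and 5 fell and 4 rose under DUX4. The membrane proteoglycan syndecan 4 (Sdc4) rose under mouse Dux from 97.6 to 952 CPM (3.29, SE 0.0536, adjusted p = 2.79e-20) and the lubricant Prg4 from 0.505 to 24.6 (5.62, SE 0.258). Under DUX4, Spock2 (-2.65, SE 0.139) and Cspg4 (-2.43, SE 0.150) fell.

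The same lists were counted in the luciferase line, where 14.7% of all tested genes rose and 16.4% fell. Of the 16 chondroitin and dermatan sulfate genes 5 rose and 3 fell, of the 9 linker genes 1 fell, of the 6 keratan sulfate genes 3 rose and 1 fell, of the 18 ligands and receptors 6 rose and 4 fell, of the 10 proteases 5 rose and 2 fell, and of the 14 other proteoglycans 3 rose. Prg4 had the largest change among the last, from 20.8 to 56.8 CPM (1.45, SE 0.120). Col1a2 fell from 565 to 273 CPM (-1.05, SE 0.0584).

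Across the 18 libraries, members differed in which genes they tracked. The values are Pearson correlations of log2 CPM over 6 groups of 3, where clone and induction set most of the variation, so they describe a shared pattern over groups only. Dcn was closest to Aspn within the family (r = 0.95) and Bgn to Ogn (r = 0.95). Omd, though between Aspn and Ogn on the chromosome, had r = 0.81 and 0.85 with them. Fmod ran against 5 of the other 6 tested members (r from -0.43 to -0.90) and had r = 0.38 with Prelp.

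Over all tested genes, the closest to Dcn were Pgm2, Dcaf12 and Cst3 (r = 0.99), to Bgn Agap1, Ephb3 and Ptgis (0.99) and to Aspn Sh3glb1 and C1qtnf3 (0.99). Fmod was closest to Chmp6, Ppp4r1 and Elk3 (0.98 to 0.99) and Prelp to Rell1, Ogfr and Vegfc (0.98). Omd was closest to Sqrdl, 4933431E20Rik and Eepd1 (0.98), and Ogn to Tmem123, Gpx8 and Dmpk (0.99).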

How the data were processed

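RNA-seq read counts per gene were deposited by the authors for 18 libraries; per the submitters' processing notes the tools were CASAVA, TopHat2 2.0.12 and Bowtie2 2.2.3 with the mm10 genome. The counting program, annotation and use of strand are stated nowhere in those notes. The members and gene lists were chosen with earlier results of these data known. Symbols turned into dates (27) were left as given, and no member or list gene was among them.

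Genes with low counts were removed with filterByExpr (minimum count 10, minimum total 15), leaving 13602 of 24028. Counts were scaled by TMM and fitted in 1 model with 6 groups by the quasi-likelihood test of edgeR 4.0.16 (R 4.3.3), with Benjamini-Hochberg adjustment over all tested genes. A gene was called at an adjusted p under 0.05; differences between responses were interaction contrasts. Replicates were separate cultures of 1 clone per transgene, with a biological coefficient of variation of 6.25%. Exact intervals (95%) and floors (3 counts) cover counting error only. Overlap of 3 against 3 libraries is described gene by gene, without the share over all tested genes, and is no test. Gene positions and lengths were from GENCODE vM21 (GRCm38), promoter sequences from RefSeq (GRCm38.p6). All 9 members were named; from each list, up to 3 called genes with the largest fold change and a mean of at least 5 CPM; and the 3 genes nearest in pattern to each tested member, of which 1 is not reported here. Alternatives were library size alone, median-of-ratios scaling, DESeq2 1.42.0, no filter, the replicate number as a block, only the groups compared, and leaving out each library. The fits were tested on simulated data.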

Additional observations from a re-analysis of the deposited data

Results flagged for a closer look

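The responses of the lines were compared by interaction contrasts of the edgeR quasi-likelihood fit for the 7 tested members. Among the member results, 18 differed between lines at an adjusted p under 0.05. Of all tested genes, 29.5% were called lower and 30.4% higher for mouse Dux against luciferase. These shares were 26.7% and 28.3% for DUX4 against luciferase, and 32.3% and 32.9% between the factors. Member values are differences in log2 fold change. Against luciferase, the mouse Dux response was lower for Dcn (-3.17), Bgn (-0.82), Ogn (-2.97), Fmod (-1.92), Aspn (-2.33) and Prelp (-3.85). The DUX4 response was lower than that of luciferase for Dcn (-1.18), Bgn (-1.90), Ogn (-3.08), Fmod (-0.77), Aspn (-2.44), Prelp (-1.63) and Omd (-0.91). Between the factors, the mouse Dux response was lower for Dcn (-1.99), Fmod (-1.15) and Prelp (-2.22) and higher for Bgn (1.08) and Omd (0.64). The values share control libraries, and each line is 1 clone, so clone and transgene cannot be told apart.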

How the results depend on the processing

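Of the member responses recomputed under an alternative, 238 kept direction and call, 7 lost the call, 4 gained it and 3 changed sign; for differences between responses these counts were 364, 5, 3 and 6. Sign changes with library size alone were Omd under mouse Dux (-0.029), and Ogn (-0.10) and Aspn (-0.10) between the factors. Leaving out 1 library gave Omd under mouse Dux -0.0090 to 0.31, Dcn under DUX4 -0.48 to 0.11 and Aspn between the factors -0.45 to 3.98. The number of members higher under DUX4 went from 0 to 1 (Lum) with DESeq2 and with no filter, as it did for DUX4 minus luciferase. Between the factors it went from 2 to 1 with library size alone, where Omd lost its call. Leaving out 1 library gave 0 to 1 members higher under mouse Dux, 0 to 1 under DUX4, 0 to 1 for DUX4 minus luciferase and 1 to 3 between the factors. The cause of these changes was not tested.

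With the replicate number as a block, Ogn under mouse Dux was -3.33, Omd 0.21 and Fmod in the luciferase line -0.20; no member call changed. Deviations of same-numbered mouse Dux libraries had r = 0.219, 0.105 and 0.0802. Different-numbered mouse Dux pairs had r of -0.165 to -0.125 with a library 1, and 0.0867 and 0.0935 without one. Same-numbered pairs of the other lines lay between -0.0306 and 0.0308. The numbers were not taken to pair the samples, although these values do not settle pairing in the mouse Dux line. Uninduced values of 5 member comparisons moved beyond 1 SD under another scaling. Low counts limit Dcn and Aspn in the DUX4 line (36 and 53 counts over the 3 uninduced libraries), Lum and Podn. The counts of gene lists under alternatives were added after seeing the data.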
